A study of Mus musculus with 6 samples.

Results

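Collagens are extracellular matrix proteins built from 3 polypeptide chains, and each chain is the product of its own gene. The collagen chain genes were taken as every gene of the deposited table that is typed as protein coding and has a symbol made of Col, a number, the letter a and a second number. 44 of the 21999 genes met this rule. By textbook class they comprised 11 fibrillar chains, 8 basement membrane chains, 6 beaded filament chains and 19 others, and 32 of the 44 passed edgeR's filter on low counts and were tested. RNA was sequenced from lung microvascular endothelial cells of untreated SV129/B6 mice, with 3 libraries of Ptprz1+/+ and 3 of Ptprz1-/- cells. Ptprz1 encodes a receptor-type protein tyrosine phosphatase that binds the growth factor pleiotrophin. Each library came from a separate isolation that pooled the lungs of 2 to 5 mice aged 3 to 8 weeks. The cells were released with collagenase, grown to confluence in serum with an endothelial growth supplement and heparin, and then separated on beads against CD31, the endothelial surface protein encoded by Pecam1. The question was how the transcriptome of these cells differs without Ptprz1.

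Between 14496881 and 17709663 reads were counted on genes per library. Levels are given as CPM, counts relative to a library size scaled by edgeR's TMM method, or as FPKM, the deposited value scaled by gene length and sequencing depth, where chains are compared with each other. The count of Ptprz1 did not separate the genotypes. It lay at 11.9, 101.0 and 32.1 CPM for Ptprz1+/+ replicates 1 to 3 against 70.6, 90.6 and 59.1 CPM for those labelled Ptprz1-/-, so every direction given here rests on the labels. The defining endothelial markers were low in 4 of the 6 libraries. Pecam1 stood at 3.81, 4.40 and 91.0 CPM for Ptprz1+/+ replicates 1 to 3 against 1.36, 1.51 and 32.4 CPM for the same replicates labelled Ptprz1-/-, and Cdh5, the endothelial cadherin, was at 8.70, 14.3 and 198.7 against 3.60, 7.41 and 61.3 CPM. The 12 endothelial markers summed to 98.2 to 720 CPM in Ptprz1+/+ and 79.2 to 283 CPM in Ptprz1-/-, with replicate 3 highest in both. Eng alone held 101, 59.4 and 142 CPM of these sums in Ptprz1+/+ replicates 1 to 3. In Ptprz1-/- replicates 1 to 3 it held 59.6, 115 and 90.5 CPM, so most of the sum in the 4 low libraries was Eng. The 11 fibroblast markers other than collagens summed to 2773 to 4747 against 1802 to 3266 CPM, and the 10 smooth muscle and pericyte markers to 878 to 4440 against 1598 to 4615 CPM. The 8 mesothelial markers summed to 1383 CPM in Ptprz1-/- replicate 1 and to 56.3 to 281 CPM in the other 5 libraries. None of these markers was at 0 in all libraries. In such bulk RNA, fewer cells of a type and less RNA per cell cannot be told apart.

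The collagen fold is a triple helix, which needs a glycine in each triplet of residues along the chain. Fibrillar collagens I, II, III, V and XI have a long unbroken helix and assemble into cross-striated fibrils. These fibrils are the main load-bearing material of lung interstitium and vessel wall, and fibroblasts are their best known source. Collagens XXIV and XXVII are classed as fibrillar too, but their helix is broken. Collagen IV has many breaks in its helix and forms the sheet-like network of basement membranes under endothelium and epithelium, to which collagens XV and XVIII attach. Collagen VI builds beaded filaments between fibrils and basement membranes, while the fibril-associated collagens such as XII, XIV and XVI sit on fibril surfaces and collagen VII anchors basement membranes to the stroma.

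The glycine pattern can be read from the coding sequences, and the stretches below are shown because the chains they come from carry the results that follow. Each holds 60 coding bases from GENCODE M21 transcripts on GRCm38, with positions counted from the A of the start codon, and the glycine codons are in capitals.
Col1a1, bases 1996 to 2055: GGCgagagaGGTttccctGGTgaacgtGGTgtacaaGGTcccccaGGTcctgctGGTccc
Col3a1, bases 2011 to 2070: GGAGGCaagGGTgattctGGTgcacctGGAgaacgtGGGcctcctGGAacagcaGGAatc
Col12a1, bases 8530 to 8589: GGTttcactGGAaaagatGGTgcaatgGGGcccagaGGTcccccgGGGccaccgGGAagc
Col14a1, bases 4666 to 4725: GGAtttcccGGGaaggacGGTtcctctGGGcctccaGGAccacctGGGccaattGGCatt
Col7a1, bases 7858 to 7917: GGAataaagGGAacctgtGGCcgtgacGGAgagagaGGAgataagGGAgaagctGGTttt
Col15a1, bases 1993 to 2052: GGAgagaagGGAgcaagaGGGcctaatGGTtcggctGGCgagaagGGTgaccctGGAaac
Col4a1, bases 3148 to 3207: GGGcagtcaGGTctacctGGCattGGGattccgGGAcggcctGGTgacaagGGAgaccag
In the first 6 the glycine codon returns with every triplet of residues (Col3a1 opens with an extra one), and in Col4a1 the spacing breaks where 1 amino acid stands between the third and the fourth glycine. Counted over the whole coding sequence as runs of at least 5 unbroken triplets, the longest run of the fibrillar chains had a median of 338 triplets (range 216 to 344), which lay apart from the other classes. The longest runs of the basement membrane chains (median 41, range 30 to 66), the beaded filament chains (45, 37 to 87) and the others (55, 23 to 113) overlapped. Basement membrane chains had 11 to 27 runs, fibrillar chains 2 or 3, beaded filament chains 3 to 5 and the others 2 to 21. Col12a1 and Col14a1 each had 5 runs holding 83 triplets in all, with a longest run of 32. These made up 8.12% of the Col12a1 protein and 13.9% of the shorter Col14a1 protein. The alignment search returned no transcript of another gene for any of the 44 coding sequences. Its settings drop short alignments, so shared stretches near 100 bases could be missed, and untranslated parts were not searched. Reads shared with other genes were therefore not excluded. Exons of other genes overlap some chains, such as Col4a3 (563 bases, opposite strand, C430014B12Rik) and Col3a1 (141 bases, same strand, Gm47302).

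Fibrillar chains made up most of the collagen counts. Col3a1, the chain of collagen III, had the highest mean level at 1426 FPKM over the 6 libraries, followed by the collagen I chains Col1a2 (819 FPKM) and Col1a1 (793 FPKM), Col5a2 (585 FPKM), and the common collagen IV chains Col4a1 (151 FPKM) and Col4a2 (123 FPKM). These 6 were the chains with a mean of at least 100 FPKM. 10 chains lay between 10 and 100 FPKM, 7 between 1 and 10 and 21 below 1. 35 chains had a count in all 6 libraries, and the 12 that did not pass the filter had no count above 272. The order of the leading chains was not firm, since Col1a1 and Col1a2 changed places between the genotypes: Col1a1 was at 918 ± 75.6 and Col1a2 at 839 ± 70.0 FPKM in Ptprz1+/+ (SD, n = 3), and they were at 668 ± 275 and 799 ± 329 FPKM in Ptprz1-/-.

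**Figure D1:**
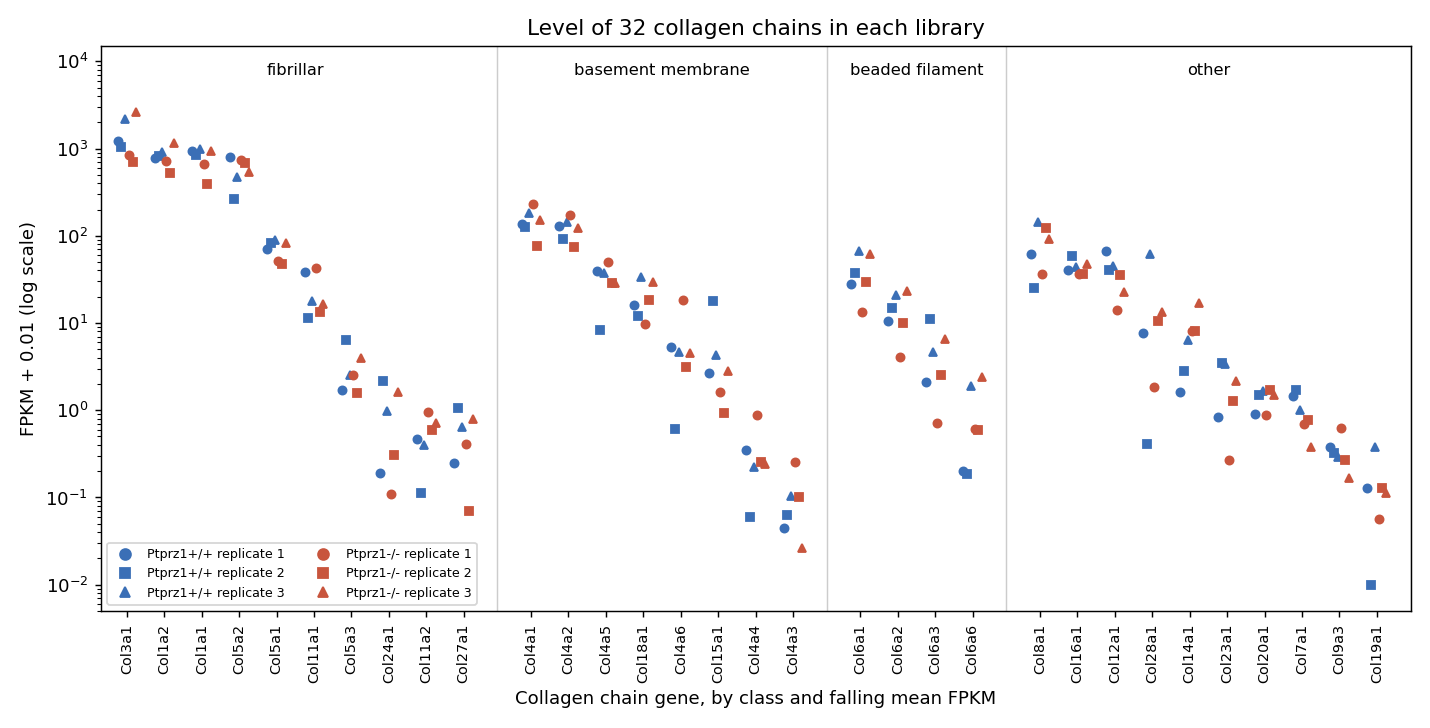
FPKM plus 0.01 (vertical log axis) of the 32 tested chains in each of the 6 libraries, with chains ordered by class and falling mean along the horizontal axis; colour marks the genotype on the label and shape the replicate. Levels span from 1426 FPKM on average for Col3a1 to below 1 FPKM, and the colours mix for most chains while the triangles of replicate 3 stand highest for several.

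Collagen chains took 2.65, 2.06 and 3.17% of all counts in the Ptprz1+/+ libraries and 2.20, 1.69 and 3.47% in those labelled Ptprz1-/-. The mean shares of 2.63 ± 0.55% and 2.45 ± 0.91% (SD, n = 3) differed by less than the spread between libraries. Fibrillar chains held 82.3 to 88.9% of the collagen counts, basement membrane chains 6.42 to 14.5%, beaded filament chains 0.397 to 1.65% and the others 2.80 to 7.94%. The genotypes overlapped in all 4 class shares. The highest basement membrane share, 14.5%, belonged to Ptprz1-/- replicate 1, and the remaining 5 libraries lay between 6.42 and 8.37%. The 4 leading chains alone made up 78.7 to 86.4% of the collagen counts, and Col3a1 21.3 to 41.9%, with the highest value in replicate 3 of each genotype (38.0 and 41.9%).

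Between the genotypes no collagen chain passed the threshold. The largest separations were in low and middle-level chains: Col14a1 and Col11a2 were higher in every library labelled Ptprz1-/- than in any Ptprz1+/+ library, and Col12a1, Col7a1 and, barely, Col15a1 were lower. The high fibrillar chains and the common collagen IV chains overlapped. With the quasi-likelihood test of edgeR and p-values adjusted after Benjamini and Hochberg, 0 of 32 chains reached an adjusted p under 0.05, against 0% of the 13609 genes tested, and the adjusted p of every chain was 1.00. DESeq2, limma voom and edgeR's likelihood ratio test also gave 0 chains. At an unadjusted p under 0.05, 1 chain was higher (Col14a1), beside 1.13% of all genes tested, and 3 were lower (Col7a1, Col12a1 and Col15a1), beside 1.56%. The groups did not overlap for 2 chains with higher values (all genes 3.55%) and for 3 with lower values (all genes 3.73%). Of the 32 log2 fold changes 11 were positive and 21 negative, with a median of -0.13 beside -0.0047 over all genes tested, and 19 lay within 1 standard error of 0. The median turned to 0.11 when Ptprz1+/+ replicate 3 was left out.

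**Figure D2:**
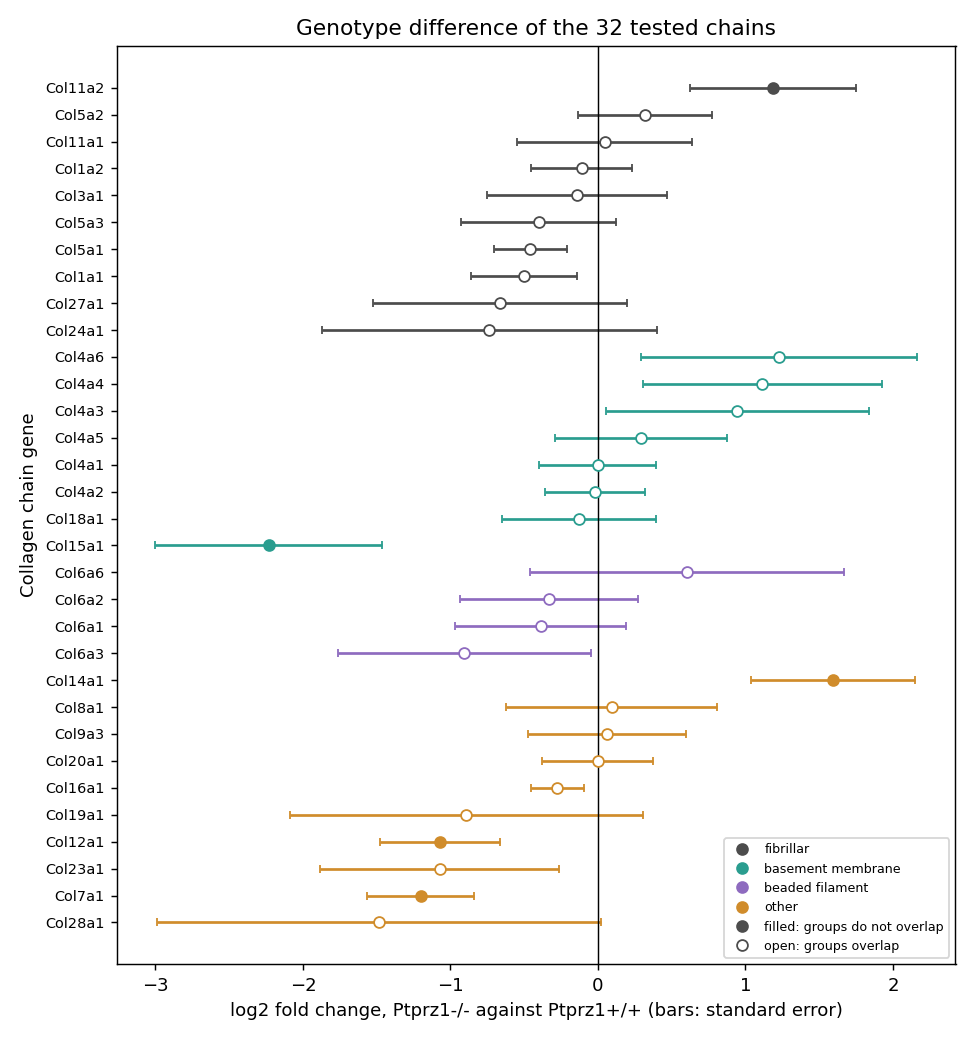
Log2 fold change of Ptprz1-/- against Ptprz1+/+ (horizontal axis, bars: standard error) for the 32 tested chains, coloured by class, with filled points where the 3 libraries of one group lie wholly above or below those of the other. The 5 filled points are Col11a2 and Col14a1 on the positive side and Col15a1, Col12a1 and Col7a1 on the negative side, and 19 of the 32 chains lie within 1 standard error of 0.

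Col14a1 (ENSMUSG00000022371, chr15:55307750-55520803 on GRCm38, plus strand) encodes the chain of collagen XIV, a fibril-associated collagen found where fibrils are tightly aligned. It was at 10.5, 17.5 and 42.3 CPM in Ptprz1+/+ replicates 1 to 3 and at 51.2, 55.2 and 105.6 CPM in Ptprz1-/- replicates 1 to 3. The lowest Ptprz1-/- library stood above the highest Ptprz1+/+ library, and within each genotype replicate 3 was the highest. The means of 23.4 ± 16.7 and 70.7 ± 30.3 CPM (SD, n = 3) gave a log2 fold change of 1.59 (SE 0.56), and its unadjusted p of 0.027 (quasi-likelihood test) ranked 174 of 13609 genes. It lay between 1.18 and 2.33 with any 1 library left out. Without both replicate 3 libraries, a setting chosen after seeing the data, the log2 fold change was 1.92 (SE 0.31).

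Col12a1 (ENSMUSG00000032332, chr9:79598991-79718831, minus strand) encodes the chain of collagen XII, a close relative of collagen XIV in its domain layout. Its values were 779, 455 and 534 CPM in Ptprz1+/+ and 157, 438 and 247 CPM in Ptprz1-/-. The groups did not overlap, but Ptprz1+/+ replicate 2 and Ptprz1-/- replicate 2 were close. The log2 fold change was -1.07 (SE 0.41, unadjusted p = 0.037 by the quasi-likelihood test), and it was -1.05 (SE 0.59, unadjusted p = 0.138) without both replicate 3 libraries, -0.78 without Ptprz1-/- replicate 1 and -1.54 without Ptprz1-/- replicate 2.

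Col7a1 (ENSMUSG00000025650, chr9:108953586-108984875, plus strand), the single chain of the anchoring fibrils of collagen VII, was at 13.7, 15.4 and 9.53 CPM in Ptprz1+/+ and at 6.08, 7.48 and 3.24 CPM in Ptprz1-/-. All 3 libraries labelled Ptprz1-/- lay below the lowest Ptprz1+/+ library. The log2 fold change of -1.20 (SE 0.36, unadjusted p = 0.014, rank 83) stayed between -1.47 and -0.92 with any 1 library left out. These levels rest on 49 to 281 reads per library.

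Col11a2 (ENSMUSG00000024330, chr17:34039437-34066685, plus strand) encodes a chain of collagen XI, which sits inside fibrils and is best known from cartilage. It had 47, 11 and 39 reads in Ptprz1+/+ (2.84, 0.605 and 2.46 CPM) and 90, 55 and 62 reads in Ptprz1-/- (5.58, 3.77 and 4.10 CPM). The groups did not overlap, at levels where few reads carry the difference. The log2 fold change was 1.19 (SE 0.56), with an unadjusted p of 0.076 by the quasi-likelihood test, and without both replicate 3 libraries it was 1.44 (SE 0.80). Its fibrillar partner Col11a1 stood at 304, 85.3 and 140.0 CPM against 318, 108 and 120 CPM, with replicate 1 highest in both genotypes and a log2 fold change of 0.05 (SE 0.59).

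Col15a1 (ENSMUSG00000028339, chr4:47208161-47313167, plus strand), the chain of collagen XV, a basement membrane collagen of microvessels and muscle, was at 14.1, 90.5 and 23.0 CPM in Ptprz1+/+ and at 8.00, 5.08 and 14.1 CPM in Ptprz1-/-. Ptprz1+/+ replicate 1 (14.075 CPM) and Ptprz1-/- replicate 3 (14.069 CPM) were in effect equal, and the groups overlapped under each of the 4 other scalings tried. They also overlapped on the FPKM scale, which orders the libraries as the scaling by library totals does. The log2 fold change of -2.23 (SE 0.77, unadjusted p = 0.025 by the quasi-likelihood test) was -1.03 without Ptprz1+/+ replicate 2, the library with the highest summed fibroblast markers (4747 CPM). The part of those cells in the value was not tested.

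**Figure D3:**
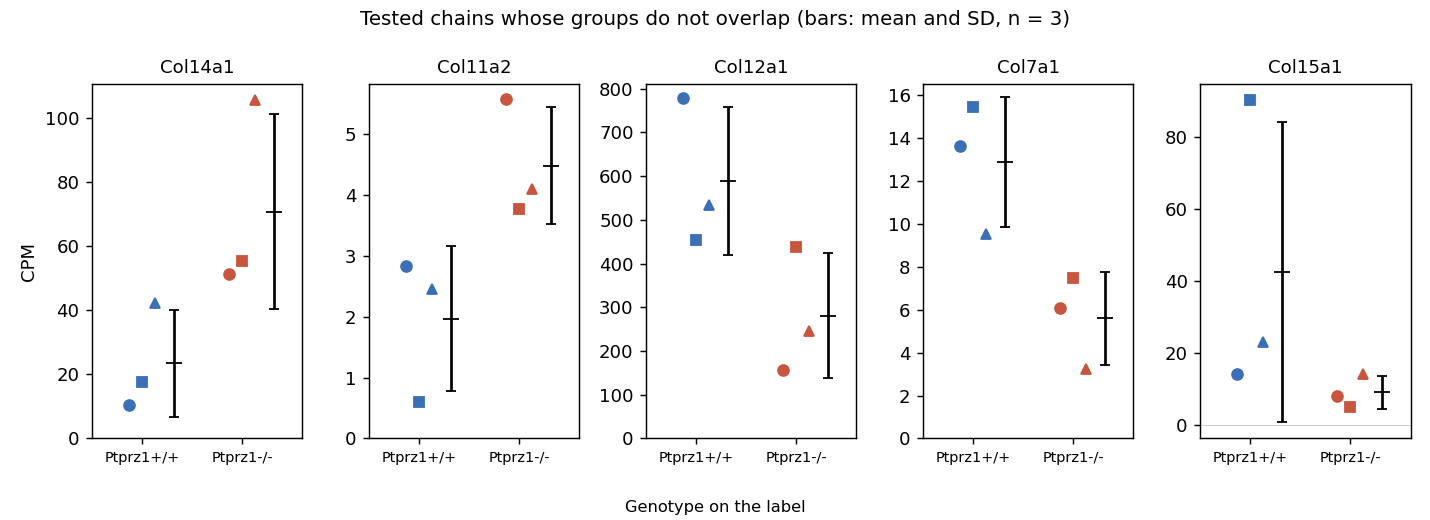
CPM of the 5 tested chains whose groups do not overlap, by genotype on the label, with 1 point per library (circle, square and triangle for replicates 1 to 3) and the mean with SD (n = 3) as a black bar. For Col14a1 and Col11a2 all 3 Ptprz1-/- points lie above the Ptprz1+/+ points, and for Col12a1 and Col7a1 below them, while the lowest Ptprz1+/+ point and the highest Ptprz1-/- point of Col15a1 are level at 14.1 CPM.

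Among the high fibrillar chains, Col1a1 encodes the alpha1 chain of collagen I and was at 5709, 4807 and 5992 CPM in Ptprz1+/+ and at 3792, 2494 and 5377 CPM in Ptprz1-/-. The groups overlapped through Ptprz1-/- replicate 3, and the log2 fold change was -0.50 (SE 0.36). Col1a2, the alpha2 chain, was at 4270, 4256 and 5076 against 3703, 2947 and 5949 CPM, with a log2 fold change of -0.11 (SE 0.34). Col3a1 spanned 5581 to 12458 CPM in Ptprz1+/+ and 4121 to 13911 CPM in Ptprz1-/-, a spread within each genotype far above the difference between them (-0.14, SE 0.61 on the log2 scale). Collagen V chains, which start fibrils and limit their width, had no common sign of difference. Col5a1 was at 603, 684 and 781 CPM against 413, 419 and 672 CPM (log2 fold change -0.46, SE 0.25), Col5a2 at 5460, 1723 and 3206 against 4726, 4808 and 3451 CPM (0.32, SE 0.45), and Col5a3 at 10.7, 37.5 and 15.8 against 14.9, 10.2 and 23.4 CPM (-0.40, SE 0.52). All 3 overlapped between the genotypes. Col24a1 and Col27a1, both below 1 FPKM on average, had log2 fold changes of -0.74 (SE 1.13) and -0.66 (SE 0.86). Col2a1, the cartilage fibril chain, had 0 to 8 reads and was not tested.

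The basement membrane chains showed no shared direction. Col4a1 was at 928, 812 and 1248 CPM in Ptprz1+/+ and at 1489, 528 and 965 CPM in Ptprz1-/-, and Col4a2 at 843, 576 and 968 against 1088, 505 and 763 CPM. Their group means were nearly the same, with log2 fold changes of -0.0025 (SE 0.40) and -0.02 (SE 0.34), and the libraries labelled Ptprz1-/- held both the highest and the lowest value of each. Col18a1, the collagen XVIII chain that carries the endostatin fragment, was at 104, 74.0 and 219.5 CPM against 59.8, 124 and 179.8 CPM, with replicate 3 highest in each genotype (-0.13, SE 0.52). The X-linked pair Col4a5 and Col4a6, chains of the collagen IV network of epithelial and smooth muscle basement membranes, varied far more. Col4a5 was at 265, 53.2 and 249.98 CPM against 320.2, 198 and 178 CPM (0.29, SE 0.58). Col4a6 was at 36.2, 3.85 and 32.1 against 117.8, 21.9 and 29.0 CPM (1.23, SE 0.94), a 30.6-fold span from Ptprz1+/+ replicate 2 to Ptprz1-/- replicate 1. Both groups overlapped for both chains, and the log2 fold change of Col4a6 was 0.08 without Ptprz1-/- replicate 1. Col4a4 and Col4a3, which pair in the basement membranes of kidney glomerulus and alveolus, were at 0.495 to 8.56 and 0.132 to 2.05 CPM. Their log2 fold changes were 1.11 (SE 0.81) and 0.95 (SE 0.89), and that of Col4a4 was 0.23 without the same library.

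Of the beaded filament chains, Col6a1 was at 117, 149.7 and 285 CPM in Ptprz1+/+ and at 53.2, 127 and 241 CPM in Ptprz1-/-, and Col6a2 at 52.1, 70.3 and 106 against 19.2, 51.7 and 110.1 CPM. Col6a3, the long chain of the same monomer, was at 21.8, 110.3 and 49.1 against 6.82, 27.0 and 62.9 CPM. Ptprz1-/- replicate 1 was the lowest library for all 3, and the genotypes overlapped, with log2 fold changes of -0.39 (SE 0.58), -0.33 (SE 0.60) and -0.91 (SE 0.86). Col6a6, which can take the place of Col6a3, was at 1.69, 1.48 and 17.0 CPM against 5.09, 5.49 and 19.9 CPM (0.60, SE 1.06). Its low values in Ptprz1+/+ replicates 1 and 2 lay below both low values of Ptprz1-/-, while the replicate 3 libraries of both genotypes lay above all others. Col6a5 and Col6a4 were not tested. Col6a5 had 272 and 101 reads in the replicate 3 libraries and 2 to 9 reads in the remaining 4.

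Among the other chains, Col8a1, the network collagen of vascular subendothelium, was the highest at 80.2 FPKM on average. It was at 318, 126 and 765 CPM in Ptprz1+/+ and 179.6, 658 and 452 CPM in Ptprz1-/- (0.09, SE 0.72). Col16a1, a fibril-associated chain, had the narrowest span of all 32 tested chains, 1.61-fold from the lowest to the highest library, and was at 217, 299 and 238 against 186, 200.1 and 238 CPM (-0.28, SE 0.18). Col28a1 had the widest of those with a count in every library, with 33.3, 1.65 and 272 CPM in Ptprz1+/+ and 7.51, 47.6 and 54.4 CPM in Ptprz1-/-. Its log2 fold change of -1.49 (SE 1.5) became 1.06 without Ptprz1+/+ replicate 3. Col23a1, a transmembrane collagen, was at 4.77, 19.0 and 19.7 against 1.43, 7.62 and 11.6 CPM and overlapped (-1.07, SE 0.81). Of the remaining tested members, Col20a1 (-0.0016, SE 0.38), Col9a3 (0.06, SE 0.54) and Col19a1 (-0.89, SE 1.20) were below 2 FPKM in all libraries. 8 more chains of this class, among them the transmembrane Col13a1 and Col17a1 and the hypertrophic cartilage chain Col10a1, had at most 44 reads in any library. The last untested chain, Col8a2, the partner of Col8a1, had 2, 0 and 2 reads in Ptprz1+/+ and 21, 3 and 7 in Ptprz1-/-, which is too few for the filter although the groups did not overlap.

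Libraries of the same genotype differed widely. All 6 collagen IV chains were highest in Ptprz1-/- replicate 1. Of the 32 tested chains 9 were highest there, beside 17.6% of all genes tested. It also held the lowest value of 10 tested chains, including Col6a1, Col6a2, Col6a3 and Col12a1. This is the library with 1383 CPM on mesothelial markers. Its smooth muscle and pericyte markers summed to 4615 CPM, and those of Ptprz1+/+ replicate 1 to 4440 CPM. Of these 10 markers, 3 were highest in Ptprz1-/- replicate 1 and 4 were lowest there. The 7 tested chains that were higher in both replicate 3 libraries than in the other 4 libraries were Col3a1, Col1a2, Col6a1, Col6a2, Col6a6, Col18a1 and Col28a1, beside 10% of all genes tested. The replicate 3 libraries are also those with the highest summed endothelial markers in each genotype (720 and 283 CPM). Ptprz1+/+ replicate 2 held the highest value of 7 tested chains, including Col6a3, Col5a3, Col24a1 and Col15a1, and the lowest of 10, including Col4a4, Col4a5 and Col4a6. In this library the summed fibroblast markers were highest (4747 CPM) and the summed smooth muscle and pericyte markers lowest (878 CPM). Within these lists, 6 of the 11 fibroblast markers, Pdgfra among them, were highest there and 1, Mfap5, was lowest, and 3 of the 10 smooth muscle and pericyte markers, Acta2 among them, were lowest there and 1, Kcnj8, was highest. The other collagen classes had their highest values spread over several libraries. The shares of all genes tested that were lowest in Ptprz1-/- replicate 1, or highest or lowest in Ptprz1+/+ replicate 2, were not computed. The patterns were read from the same values that they describe, and the part of the marked cell types in them was not tested.

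**Figure D4:**
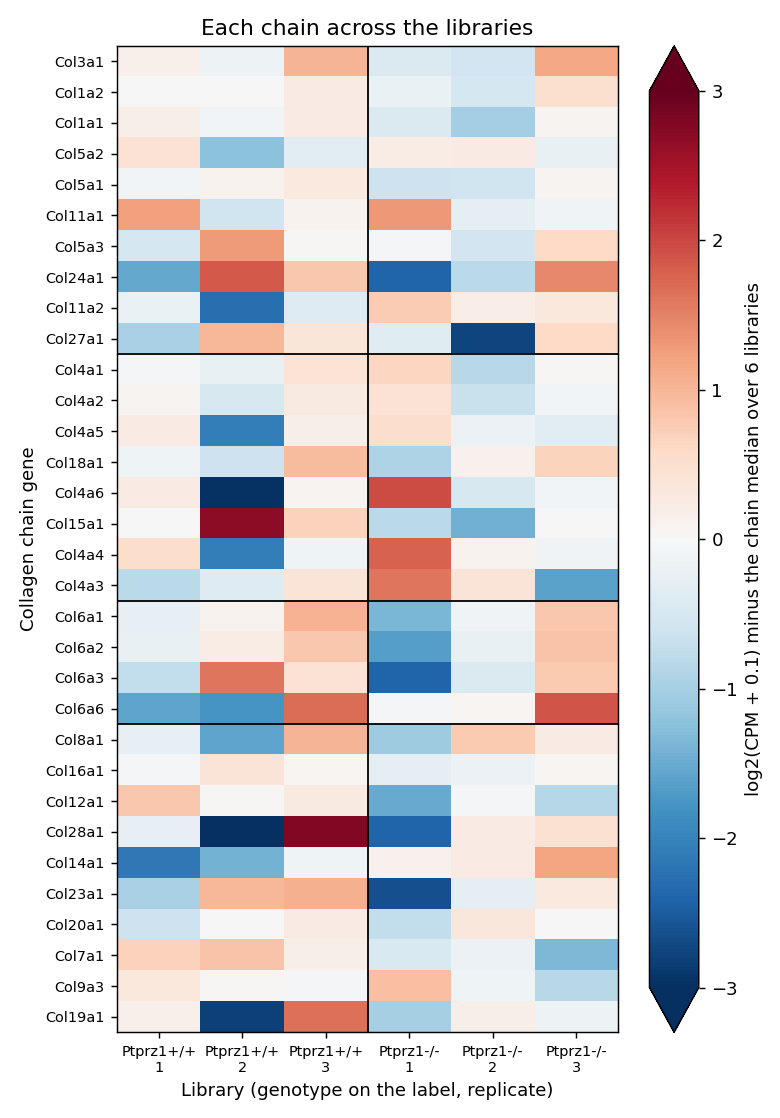
Log2 of CPM plus 0.1 minus the median of the 6 libraries (colour, red above and blue below, with the scale ending at 3) for the 32 tested chains in rows, by class, and the 6 libraries in columns. Red marks the collagen IV chains in Ptprz1-/- replicate 1 and the collagen VI chains in both replicate 3 libraries, and no class changes colour as a whole at the line between the genotypes.

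Chains that assemble into the same molecule can be compared as ratios of FPKM within a library, which leaves the library size out. The collagen I ratio Col1a1 to Col1a2 was 1.21, 1.02 and 1.06 in Ptprz1+/+ and 0.923, 0.763 and 0.815 in Ptprz1-/-. All 3 libraries labelled Ptprz1-/- lay below the lowest Ptprz1+/+ library, with FPKM means of 1.10 ± 0.098 and 0.834 ± 0.082 (SD, n = 3). A ratio of counts differs from a ratio of FPKM only by the fixed gene lengths, so it must separate the groups alike. Of 8 ratios between partner chains or between collagens III and I, Col1a1 to Col1a2 was the only one in which the groups did not overlap. How often ratios of other gene pairs separate the groups was not computed, so this count has no background share beside it. With 3 libraries against 3, an exact two-sided permutation test cannot go below 0.10. The ratio Col4a1 to Col4a2 stayed between 1.02 and 1.37, a 1.35-fold span, while Col4a1 itself spanned 2.82-fold. The ratio Col6a1 to Col6a2 stayed between 2.55 and 3.32 (1.30-fold), while Col6a1 spanned 5.36-fold and Col6a2 5.74-fold. The ratio to the long chain of that monomer was not as steady, with Col6a1 to Col6a3 between 3.35 and 19.2. Col5a1 to Col5a2 lay between 0.0686 and 0.313, Col4a5 to Col4a6 between 2.76 and 14.1, Col4a3 to Col4a4 between 0.0695 and 1.05 on few reads, and Col3a1 to Col1a1 between 1.24 and 2.76. Col8a1 to Col8a2 had no value because Col8a2 was at 0 in Ptprz1+/+ replicate 2. The ratio Col14a1 to Col12a1, chosen after the values were seen, was 0.0240, 0.0685 and 0.141 in Ptprz1+/+ and 0.579, 0.225 and 0.763 in Ptprz1-/-, and rests on the same values as the comparison of each chain.

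**Figure D5:**
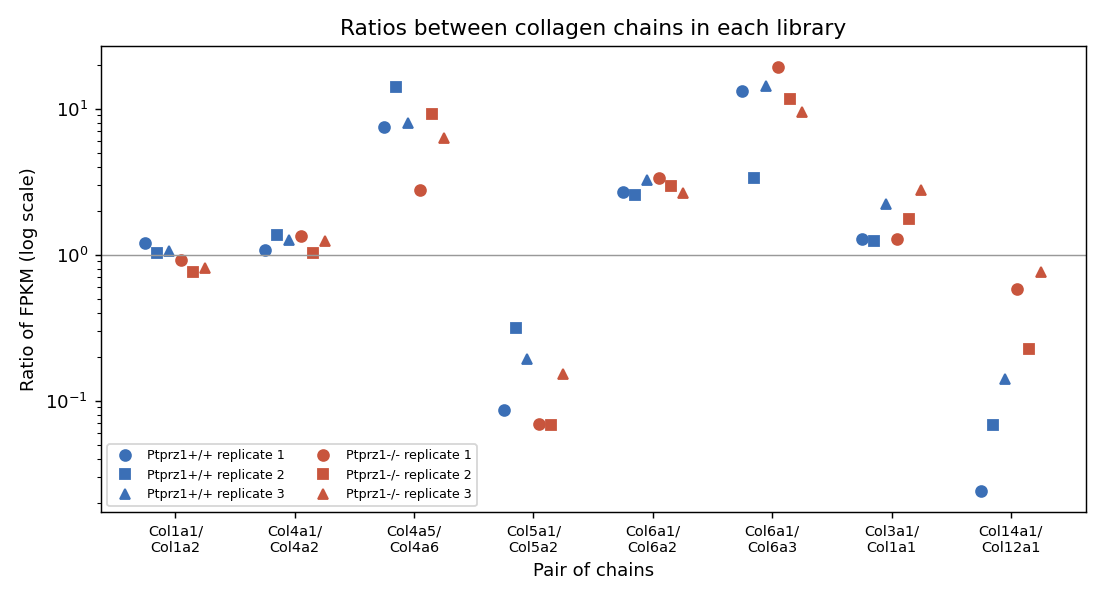
Ratio of the FPKM of chain pairs (vertical log axis, grey line at 1) in each library, with colour for the genotype on the label and shape for the replicate. Col1a1 to Col1a2 spans 1.02 to 1.21 for Ptprz1+/+ and 0.763 to 0.923 for Ptprz1-/-, and Col4a1 to Col4a2 and Col6a1 to Col6a2 span 1.35-fold and 1.30-fold over all 6.

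The genes of the steady collagen IV pair overlap at their starts. Col4a1 (chr8:11198423-11312826, minus strand) and Col4a2 (chr8:11312805-11449287, plus strand) lie head to head and overlap by 22 bases on GRCm38. Col4a4 and Col4a3 lie head to head 71 bases apart on chromosome 1, and Col4a6 and Col4a5 1308 bases apart on chromosome X. The ratios of these pairs spanned 15.1-fold, on 2 to 33 reads of Col4a3 per library, and 5.08-fold. Any part of gene position in the ratios was not tested. Col6a1 and Col6a2 are neighbours on chromosome 10 in the same direction, 85161 bases apart. The genes of collagen I are on separate chromosomes, Col1a1 at chr11:94936224-94953042 and Col1a2 at chr6:4504814-4541543.

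Collagen chains are hydroxylated, folded and exported in the endoplasmic reticulum, and are cleaved and cross-linked outside the cell. Of the 20 genes listed for folding and modification, 19 were tested and none had an unadjusted p under 0.05. Their summed level was 5597 to 8278 CPM in Ptprz1+/+ and 5476 to 6507 CPM in Ptprz1-/-, and their median log2 fold change was -0.18. Sec24d, a coat protein of export vesicles, had the lowest p of them: 196, 188 and 177 against 153, 158 and 163 CPM, without overlap, for a log2 fold change of -0.25 (SE 0.11). The next were the chaperone Fkbp10 (-0.31, SE 0.17) and the prolyl 3-hydroxylase family member P3h4 (0.15, SE 0.12), both with overlapping groups.

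The enzymes that act after secretion held several genes with lower values in every library labelled Ptprz1-/-. Of the 13 genes of procollagen cleavage and cross-linking 12 were tested, 10 had negative log2 fold changes and 5 had non-overlapping lower values (Adamts14, Loxl3, Pcolce2, Bmp1 and Loxl2), beside 3.73% of all genes tested. At an unadjusted p under 0.05 by the quasi-likelihood test 3 were lower (1.56% of all genes) and none higher, none passed the adjusted threshold, and the median log2 fold change was -0.39. Adamts14, which removes the amino-terminal propeptide of fibrillar procollagens, was at 31.4, 23.4 and 29.7 CPM against 15.6, 9.68 and 20.7 CPM (-0.88, SE 0.29). Loxl3, a lysyl oxidase that starts cross-links, was at 44.4, 68.1 and 46.2 against 33.1, 36.4 and 37.5 CPM (-0.57, SE 0.19). Pcolce2, an enhancer of carboxyl-terminal propeptide cleavage, was at 6.71, 10.6 and 8.01 against 5.71, 1.44 and 3.83 CPM (-1.20, SE 0.50). The main lysyl oxidase Lox had a log2 fold change of -0.09 (SE 0.37). Of the 11 fibroblast markers 8 had negative and 3 positive log2 fold changes, and 9 overlapped between the groups. Thy1, a fibroblast surface marker and one of the 2 without overlap, was at 313, 234 and 240.3 against 112, 182 and 141 CPM (-0.86, SE 0.22, unadjusted p = 0.0075 by the quasi-likelihood test). The relation of the list to the enzymes was not tested.

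Of 10 listed collagen receptors and uptake genes 9 were in the table and 8 were tested. None had an unadjusted p under 0.05 or non-overlapping groups, and the median log2 fold change was 0.13. The lowest p values belonged to the collagen-binding receptor kinase Ddr1, at 159, 84.9 and 167 against 366, 126 and 182 CPM (0.71, SE 0.45), the collagen-binding integrin subunit Itga11 (0.68, SE 0.52) and the receptor kinase Ddr2 (-0.17, SE 0.23). Ddr1 was highest in Ptprz1-/- replicate 1, the library in which the collagen IV chains were highest.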

How the data were processed

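RNA of 6 libraries (3 Ptprz1+/+ and 3 Ptprz1-/-, grouped by the labels) was analysed. The authors deposited raw read counts per gene, not normalized, and FPKM values made from the same counts, gene length and library total. Their mean signals, log2 fold changes and p-values hold their own comparison and were not used, nor were their lists of called genes. The submitters' processing notes name STAR, TopHat, HTSeq, DESeq2 and edgeR with GRCm38/mm10, and the use of strand is not given in the sources used here.

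R 4.3.3 and edgeR 4.0.16 were used for TMM scaling, for filterByExpr, which kept 13609 genes, and for the quasi-likelihood test, in a model with genotype alone and Benjamini-Hochberg adjustment. The standard error is the absolute log2 fold change over the square root of F. The steps were tested on simulated data. Alternatives were DESeq2 1.42.0, limma 3.58.1 voom, other scalings and filters, edgeR's likelihood ratio test, the replicate block, and each library left out. Coding sequences were aligned with minimap2 2.31. Named by value were the chains of collagens I, III, IV, V, VI, XV and XVIII, chains with an unadjusted p under 0.05, non-overlapping groups or a log2 fold change of at least 1 in size, the 3 highest chains per class, and 3 genes per pathway list. Other genes were named after their values were seen. The chains and lists were chosen with earlier results of these data known. P-values measure the spread between isolations. Gene positions are those of the table, and 41 of 44 chains lie at the same position in GENCODE M21.

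Depth was between 14496881 and 17709663 counts per library, so chains with few reads rest on counting error as well.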

Additional observations from a re-analysis of the deposited data

How the results depend on the processing

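In all 16 alternative settings (9 other fits, each of the 6 libraries left out, and both replicate 3 libraries left out) 0 collagen chains had an adjusted p under 0.05, while over all genes DESeq2 gave 30 calls and edgeR's likelihood ratio test 17, against 0 in the quasi-likelihood test. Chains with an unadjusted p under 0.05 numbered 2 to 4 with 1 library left out (2 without Ptprz1+/+ replicate 1, Ptprz1+/+ replicate 2 or Ptprz1-/- replicate 1), 5 without a filter on low counts and 6 without both replicate 3 libraries (Col4a3, Col5a1, Col6a6, Col7a1, Col14a1 and Col15a1, but not Col12a1; an alternative added after seeing the data). With 1 library left out, Col7a1 kept such a p in all 6 fits, Col14a1 and Col15a1 in 3 each and Col12a1 in 2. With the replicate block, 6 chains and 690 genes had an unadjusted p under 0.05 (366 genes without it) and none passed the adjusted threshold. The 6 are Col7a1, Col11a2, Col14a1, Col5a1, Col6a6 and Col23a1. Col12a1 and Col15a1 no longer had an unadjusted p under 0.05. That of Col15a1 was 0.088 by edgeR's quasi-likelihood test with the replicate block. Deviations of same-numbered libraries correlated at 0.45, -0.06 and 0.52 for replicates 1 to 3, so the numbers were not taken as pairs, and not every library correlated best with its own number. The groups did not overlap for 4 chains instead of 5 (Col15a1 dropped out) under the 4 other scalings.

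13 of the 32 log2 fold changes kept their sign in the 9 other fits and the 6 that leave out 1 library. Turned by another fit were Col4a1 (0.0035 by upper-quartile normalization, 0.046 by library totals only, 0.0049 without the filter), Col4a2 (0.026 by library totals), Col20a1 (0.0073 by library totals, 0.0070 without the filter), Col28a1 (0.18), Col19a1 (0.56) and Col9a3 (-0.13) by limma voom, and Col9a3 (-0.092) with the replicate block. With 1 library left out the ranges that crossed 0 were -0.41 to 0.30 (Col4a1), -0.32 to 0.22 (Col4a2), -0.12 to 1.46 (Col4a3), -0.15 to 0.62 (Col4a5), -0.53 to 0.45 (Col18a1), -1.03 to 0.077 (Col6a1), -1.11 to 0.094 (Col6a2), -0.35 to 2.67 (Col6a6), -0.94 to 0.28 (Col3a1), -0.45 to 0.090 (Col1a2), -0.00094 to 0.82 (Col5a2), -0.76 to 0.28 (Col5a3), -0.62 to 0.70 (Col11a1), -2.40 to 0.13 (Col24a1), -0.35 to 0.95 (Col8a1), -2.07 to 1.06 (Col28a1), -0.27 to 0.25 (Col20a1), -0.61 to 0.41 (Col9a3) and -1.49 to 0.56 (Col19a1). The cause was not tested. For chains of few reads, such as Col11a2 and Col4a3, depth limits what can be told.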
